A study of Mus musculus with 2 samples.

Results

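The MAP kinase phosphatases of the Dusp family were read in mouse embryonic fibroblasts (MEF) before and after serum, with THOC5 present or depleted. THOC5 is a subunit of the THO complex, which couples transcription to mRNA processing and export. All probes carrying the gene name Dusp1, Dusp2, Dusp4, Dusp5, Dusp6, Dusp7, Dusp8, Dusp9, Dusp10 or Dusp16 were taken, apart from control spots. This gave 10 genes, read by 11 probes, of 28233 named genes and 35774 probes with a gene name. Dusp16 had 2 probes and every other gene had 1, and each probe was printed as 1 spot. All 10 genes were well above background in all 4 channels, so no member was lost to the filter on dim probes.

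Each condition was measured on 1 dual-color Agilent array, without replicates, and both arrays lay on 1 slide. All cells were an immortalized MEF line, Rosa26ERT2 Cre: THOC5 (flox/flox), of the background C57BL/6 x B6:129 Ola, so the control cells carried the floxed alleles and the inducible Cre too. The control culture, labelled wildtype, had no tamoxifen, and the culture labelled THOC5 knockdown had 2 days of tamoxifen (in the methods, 10 μM for 24 h and then 24 h of growth medium). Both were then starved of serum for 24 h. On each array Cy3 carried RNA of these unstimulated cells and Cy5 carried RNA of cells stimulated for 1 h with serum, at 20% in the methods. The dyes were not exchanged on either array. Tamoxifen, the Cre, the culture and the loss of THOC5 cannot be told apart, and neither can serum and dye.

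MAP kinase phosphatases remove the phosphates from the threonine and the tyrosine in the activation loop of ERK, JNK and p38, and so switch these kinases off. Several of their genes are themselves induced by the kinases they inactivate, which makes them a classical negative feedback in fibroblasts and other cells after growth factors. The family is commonly ordered into inducible nuclear enzymes (Dusp1, Dusp2, Dusp4, Dusp5), cytoplasmic enzymes that prefer ERK (Dusp6, Dusp7, Dusp9) and enzymes that prefer JNK and p38 (Dusp8, Dusp10, Dusp16). The results are given in this order.

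The oligonucleotides on the array were 60 bases long. The first 30 bases of the probes behind the 5 genes that serum raised most on the control array are shown because all values of these genes rest on them.
Dusp1: gcgtatgagagtttttacctttatttattt
Dusp2: gtgggcatctcgctgtaattggtgctgaaa
Dusp4: aataacggcggtttccgctgccagagaaga
Dusp5: tacagacactgagccctgatatgcagggca
Dusp6: catttggtggatgcaacaggttgagaggaa
In the mm9 coordinates of the scanner files, the Dusp2 probe lay on chromosome 2 from 127163930 to 127163989, the Dusp4 probe on chromosome 8 from 35882045 to 35882104 and the Dusp5 probe on chromosome 19 from 53615682 to 53615741. The Dusp6 probe lay on chromosome 10 from 98729985 to 98730044. For Dusp1 the files listed 26642526 to 26642536 on chromosome 17, a span of 11 bases that is shorter than the probe. All 10 genes were matched to the reference annotation by their accession. The exon or UTR that each probe covers was not determined, since no annotation of mm9 was used here.

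Values are processed signals, which are spot intensities after background subtraction and dye normalization. The serum ratio is the Cy5 over the Cy3 signal of 1 array, and the fold reduction is the serum ratio in control cells over that in THOC5 depleted cells. The error after ± is the one that the scanner software gives for a spot, which covers technical error within 1 array and not the spread between cultures. With 1 array per condition, no test was made and no p-value is given. Levels of different probes are not compared. Processed signals are not scaled between the arrays, and differences between the arrays after normalization are given further below.

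On the control array serum raised 5 of the 10 genes by 2-fold or more, namely Dusp1, Dusp2, Dusp4, Dusp5 and Dusp6. Of the 19296 genes tested, 2.94% reached this limit. On the array of THOC5 depleted cells 4 of the 10 did so (all of these but Dusp4), against 1.35% of the genes tested. No member had a serum ratio of 0.5 or less on either array, where the background was 2.38% in control and 0.772% in THOC5 depleted cells. All member ratios past 2-fold were thus rises, and 8 of the 10 genes had a higher serum ratio in control cells. The share of all genes tested with a higher control ratio was not counted, and their median log2 fold reduction was -0.01. Dusp2 left these 8 members when the ratios of the arrays were scaled to 1 spread, and Dusp8 joined them when ratios were centred on the spike-in probes. The members' median log2 serum ratio was 1.26 in control cells, against -0.03 over all genes tested, and 0.52 after depletion, against -0.01.

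**Figure D1:**
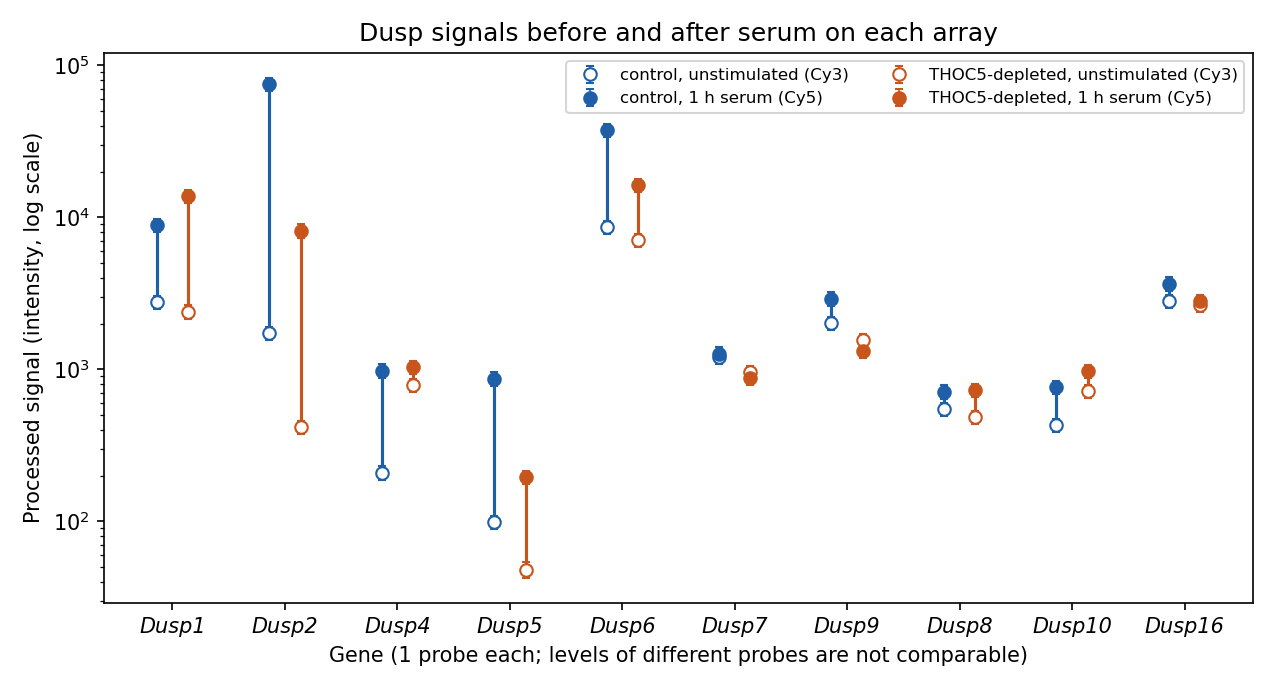
Processed signal of each Dusp gene (vertical, intensity on a log scale) before serum (open circles, Cy3) and after 1 h of serum (filled circles, Cy5) on the control array (blue) and the THOC5 depleted array (orange). Bars are the scanner software's error, and signals are not scaled between arrays. Dusp2 has the longest line on both arrays (1732 to 75051 in control cells), and the Dusp4 line is short on the THOC5 depleted array (785.9 to 1033).

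The fold reduction was 1.3 or more for 6 members, against 10.1% of the genes tested, and 2 or more for 3 members (Dusp2, Dusp4 and Dusp5), against 1.75%. With the ratios scaled to 1 spread these counts were 3 and 1, and with centring on the spike-in probes 8 and 5. The nominal ratios of the spike-in probes were not known, so centring on them is an alternative only. For a single member, Dusp1, depletion went with a serum ratio higher by 1.3 times or more, where the background was 12.7%. The median log2 fold reduction was 0.58 over the members and -0.01 over all genes tested. Among the 562 other genes with a control serum ratio of 2 or more, the median was 0.91, and the share with a fold reduction was 82.9% at the limit of 1.3 and 41.5% at the limit of 2, while 2.49% went the way of Dusp1. That set was chosen by the control ratio, which is the numerator of the fold reduction and so shifts these values upward by itself. A fold reduction is therefore not read as particular to the Dusp genes.

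Among the inducible nuclear enzymes, Dusp2 (PAC1, which acts on ERK and p38) had the highest serum ratio of all members. Its signal in control cells was 1732 ± 173 before and 75051 ± 7505 after serum. In THOC5 depleted cells it was 415.9 ± 41.7 before and 8185 ± 819 after serum. Both signals of the THOC5 depleted cells were thus lower than their counterparts, and serum raised the gene strongly on both arrays. The serum ratio was 43.3 in control cells (log2 5.44 ± 0.56) and 19.7 in THOC5 depleted cells (log2 4.30 ± 0.45), a fold reduction of 2.20 (log2 1.14 ± 0.72). In control cells 2 of the 19296 genes had a higher serum ratio and in THOC5 depleted cells 3 did. The reduction of Dusp2 turned its direction in 1 alternative: when the log2 ratios of the THOC5 depleted array were scaled to the spread of the control array, its log2 fold reduction was -0.55.

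Dusp5 (a phosphatase that binds and inactivates ERK in the nucleus) rose from 99.1 ± 10.3 to 867.2 ± 86.8 in control cells. In THOC5 depleted cells it rose from 48.3 ± 5.57 to 195.1 ± 19.7. As for Dusp2, both signals were lower after depletion, and the larger gap lay after serum. Its serum ratio was 8.75 in control cells (log2 3.13 ± 0.36) and 4.04 in THOC5 depleted cells (log2 2.02 ± 0.28). With normexp and loess these log2 ratios were 2.56 and 1.34, and the log2 ratio after depletion was 2.81 when scaled to 1 spread. The fold reduction was 2.17 (log2 1.11 ± 0.45), and its log2 value fell to 0.32 when the ratios were scaled to 1 spread. In control cells 46 genes had a higher serum ratio than Dusp5 and in THOC5 depleted cells 47 did, so its place among all genes hardly moved while its ratio fell.

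Dusp4 (MKP-2, which acts on ERK and JNK) had the largest fold reduction of the members. Its signal in control cells was 209.4 ± 21.1 before and 981.8 ± 98.2 after serum. In THOC5 depleted cells it was 785.9 ± 78.6 before and 1033 ± 103 after serum. The stimulated signals of the arrays were close to each other, and the unstimulated ones were not. The serum ratio was 4.69 in control cells (log2 2.23 ± 0.29) and 1.31 in THOC5 depleted cells (log2 0.39 ± 0.21), a fold reduction of 3.57 (log2 1.83 ± 0.36). Of all genes tested, 62 had a larger fold reduction. In control cells 127 genes had a higher serum ratio than Dusp4, and in THOC5 depleted cells 1548 did.

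Dusp1 (MKP-1, which prefers p38 and JNK and is the founding member of the family) went the other way. Its signal in control cells was 2777 ± 278 before and 8911 ± 891 after serum. In THOC5 depleted cells it was 2398 ± 240 before and 13806 ± 1381 after serum. The arrays were farther apart after serum than before it. The serum ratio was 3.21 in control cells (log2 1.68 ± 0.26) and 5.76 in THOC5 depleted cells (log2 2.53 ± 0.31), which was 1.79 times higher (log2 fold reduction -0.84 ± 0.40). This difference exceeded the combined software error, which does not cover the spread between cultures. A lower fold reduction than that of Dusp1 was found for 516 of the 19296 genes tested, so its value was not singular among all genes. In control cells 233 genes had a higher serum ratio than Dusp1, and in THOC5 depleted cells 20 did. Over the alternatives its log2 fold reduction ran from -1.83 to -0.60.

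**Figure D2:**
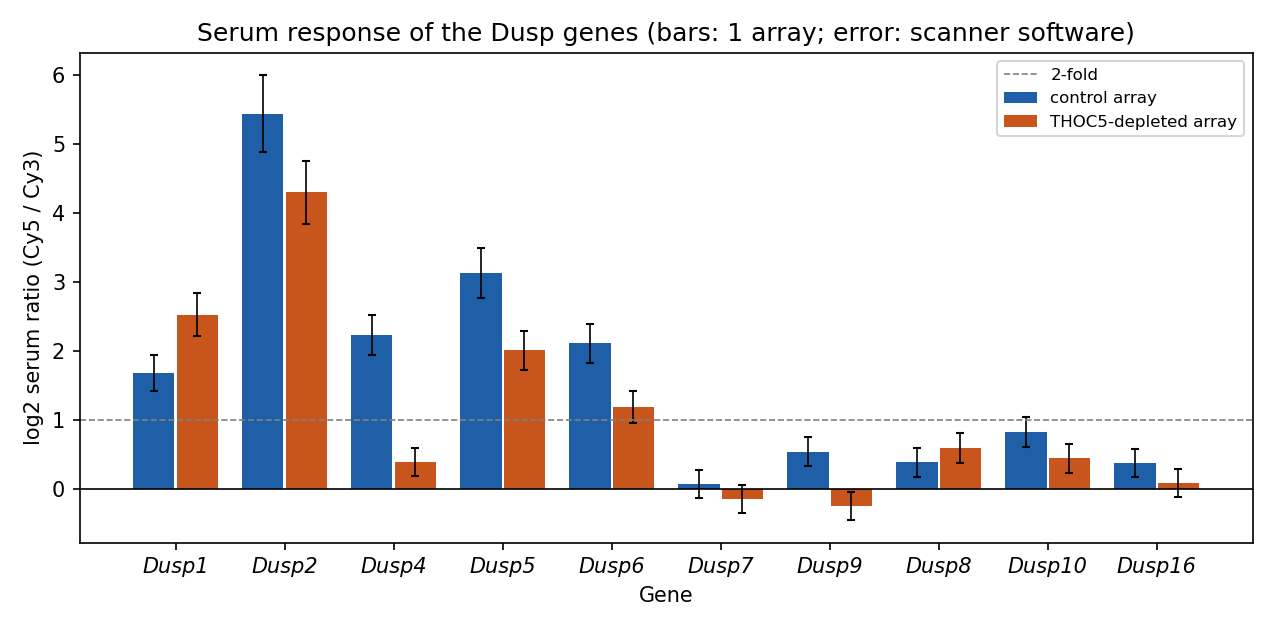
Log2 serum ratio (Cy5 over Cy3, vertical) of the 10 Dusp genes on the control array (blue bars) and the THOC5 depleted array (orange bars), with the scanner software's error and a dashed line at 2-fold. The orange bar is higher than the blue bar for Dusp1 (2.53 against 1.68) and Dusp8 (0.60 against 0.39) and lower for the other 8 genes, of which Dusp2 turned direction when the ratios were scaled to 1 spread.

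Of the cytoplasmic enzymes, Dusp6 (MKP-3, the ERK-specific feedback phosphatase of the growth factor response) was raised on both arrays. Its signal rose from 8639 ± 864 to 37479 ± 3748 in control cells and from 7105 ± 711 to 16206 ± 1621 in THOC5 depleted cells. The signals before serum were close to each other and the stimulated signals stood apart. The serum ratio was 4.34 in control cells (log2 2.12 ± 0.28) and 2.28 in THOC5 depleted cells (log2 1.19 ± 0.23). The fold reduction was 1.90 (log2 0.93 ± 0.36), between the limits of 1.3 and 2, and the log2 value ran from 0.46 to 1.17 over the alternatives.

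Dusp9 (MKP-4, known for its role in placenta) and Dusp7 (MKP-X) were not raised 2-fold on either array. Dusp9 signals were 2011 ± 201 before and 2923 ± 292 after serum in control cells, and 1565 ± 157 before and 1321 ± 132 after serum in THOC5 depleted cells. Its serum ratio was 1.45 in control cells (log2 0.54 ± 0.21) and 0.844 in THOC5 depleted cells (log2 -0.24 ± 0.21), with a fold reduction of 1.72 (log2 0.78 ± 0.29). The serum ratio of Dusp9 thus lay above 1 on the control array and below 1 on the other, but with centring on the spike-in probes both lay above 1 (log2 1.16 and 0.13). The log2 fold reduction lay between 0.78 and 1.03 over the alternatives. Dusp7 signals were 1207 ± 121 and 1271 ± 127 in control cells, and 963.1 ± 96.4 and 873.8 ± 87.4 in THOC5 depleted cells. Its serum ratios, 1.05 and 0.907, differed by less than the software error (log2 fold reduction 0.21 ± 0.29).

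None of the 3 enzymes that prefer JNK and p38 reached 2-fold on either array, though with centring on the spike-in probes Dusp10 (log2 1.45) and Dusp8 (log2 1.00) did so on the control array. Dusp10 (MKP-5) signals were 427.7 ± 42.9 before and 761.6 ± 76.2 after serum in control cells, and 715.9 ± 71.6 before and 976.6 ± 97.7 after serum in THOC5 depleted cells. Its serum ratio was 1.78 and 1.36, a fold reduction of 1.31 (log2 0.38 ± 0.30). It fell below the limit of 1.3 with normexp and loess (log2 0.32), without dye normalization (0.33) and with scaling to 1 spread (0.21). Both of its signals were higher after depletion, the unstimulated one more so. Dusp8 (a phosphatase best known from brain and heart) had signals of 545.2 ± 54.6 and 713.1 ± 71.4 in control cells, and of 485.3 ± 48.6 and 734.1 ± 73.5 in THOC5 depleted cells. Its serum ratios of 1.31 and 1.51 differed by less than the software error (log2 fold reduction -0.21 ± 0.30), and the direction flipped to 0.03 with centring on the spike-in probes.

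Dusp16 (MKP-7, which prefers JNK) was read by 2 probes on chromosome 6. The bright probe, from 134665783 to 134665842, gave 2811 ± 281 before and 3664 ± 366 after serum in control cells, and 2643 ± 264 before and 2825 ± 283 after serum in THOC5 depleted cells. The dim probe, from 134668003 to 134668062, gave 21.2 ± 3.55 and 37.0 ± 5.14 in control cells, and 38.5 ± 4.83 and 33.5 ± 4.57 in THOC5 depleted cells. The bright probe had log2 serum ratios of 0.38 ± 0.21 and 0.10 ± 0.20 (log2 fold reduction 0.29 ± 0.29), and the dim probe 0.80 ± 0.32 and -0.20 ± 0.27 (log2 fold reduction 1.00 ± 0.42). Both probes gave a higher ratio in control cells, but of different size, and the bright probe was used for all counts.

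A fold reduction can come from a lower stimulated signal, a higher unstimulated signal or both, so the channels were also compared between the arrays after quantile normalization of the mean signals. Such differences across arrays are less precise than ratios within an array. In RNA of whole cultures, a change in the number of cells that express a gene and a change in its RNA per cell cannot be told apart. In unstimulated cells 1 member (Dusp2) was 2-fold or more lower after depletion, against 3.28% of the genes tested, and 2 members (Dusp4 and Dusp10) were 2-fold or more higher, against 3.23%. Dusp10 fell short of 2-fold (log2 0.92) with normexp, loess and Aquantile. After serum 2 members (Dusp2 and Dusp5) were 2-fold or more lower, against 3.48%, and none was 2-fold or more higher, against 3.83%. Of the 562 other genes with a control serum ratio of 2 or more, 18.7% were 2-fold or more higher and 2.14% lower before serum. After serum 26.5% of them were 2-fold or more lower. Their choice by the control ratio, which shares its signals with these differences, shifts such shares by itself. The median log2 difference over the members was 0.07 before and -0.16 after serum, and over all genes tested -0.00 in both.

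The 5 serum-induced members showed different combinations of these differences, all given as THOC5 depleted minus control in log2 signal. Dusp2 differed by -1.74 before serum (3.34-fold lower) and by -2.88 after it (7.36-fold lower), and 80 genes had a lower difference after serum. Dusp5 was 1.79-fold lower before and 3.87-fold lower after serum. These 2 genes were low in both channels after depletion.

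Dusp6 differed by 0.03 before serum and by -0.90 after it (1.87-fold lower). The uninduced Dusp9 had a like pair of values, -0.05 before and -0.83 after serum (1.78-fold lower). In both genes the arrays were close in unstimulated cells and stood apart after serum.

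Dusp4 differed by 2.17 before serum (4.51-fold higher) and by 0.34 after it, so its low serum ratio went with a high unstimulated signal. Of all genes tested, 201 had a larger rise before serum. Dusp10 resembled Dusp4 in direction, with 1.02 before serum (2.03-fold higher) and 0.64 after it.

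Dusp1 differed by 0.12 before serum and by 0.96 after it (1.94-fold higher), and 816 genes had a larger positive difference after serum. The differences of Dusp7 (-0.04 and -0.25), Dusp8 (0.12 and 0.33) and the bright Dusp16 probe (0.22 and -0.06) were all under 2-fold. The dim Dusp16 probe differed by 1.01 before serum and by 0.00 after it.

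**Figure D3:**
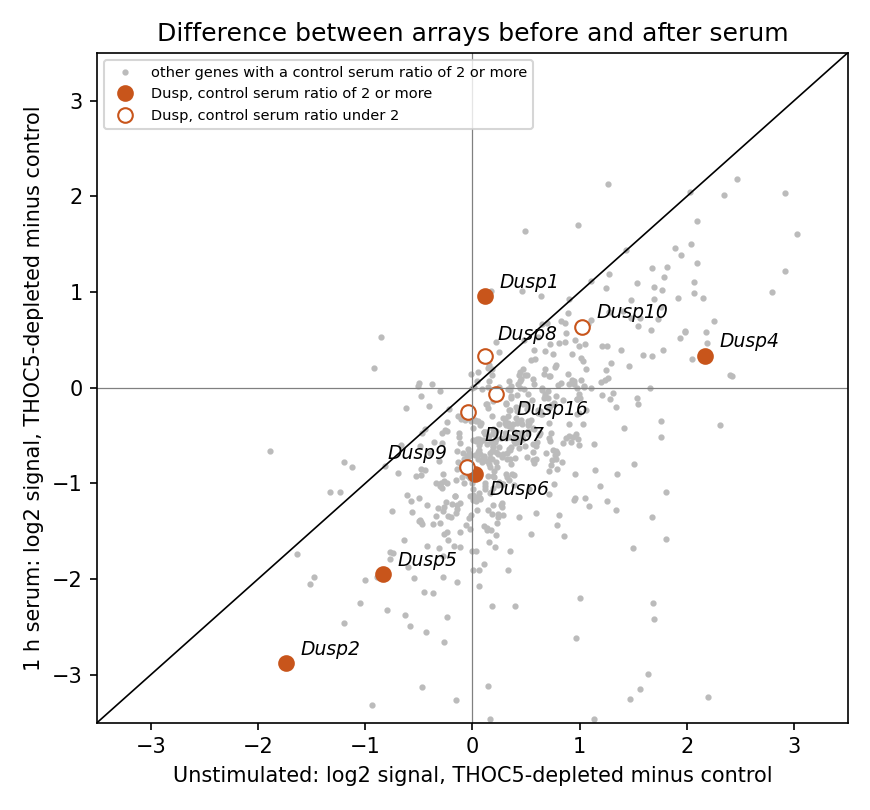
Difference in log2 signal between the arrays (THOC5 depleted minus control) before serum (horizontal) and after 1 h of serum (vertical), for the Dusp genes (orange, filled where the control serum ratio was 2 or more) and for the 562 other genes with a control serum ratio of 2 or more (grey, of which 4 lie outside the axes). Points under the diagonal have a lower serum ratio after depletion, which the choice of genes by their control ratio favours in itself: Dusp4 lies to the right (2.17, 0.34), Dusp2 at the lower left (-1.74, -2.88), and Dusp1 above the diagonal (0.12, 0.96).

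The genes whose pair of log2 serum ratios lay nearest to that of Dusp2, among 17199 genes well above background in all 4 channels, were Nr4a1 (control ratio 43.0, ratio after depletion 21.5, at a distance of 0.13), Egr2 (45.0 and 24.6, 0.33) and Arc (23.7 and 16.8, 0.90). Nr4a1 encodes an orphan nuclear receptor, Egr2 a zinc finger transcription factor and Arc a cytoskeleton-associated protein, and all are classical immediate-early genes. For Dusp1 the nearest were Btg2, an antiproliferative immediate-early gene (4.89 and 4.92, 0.65), 1810011O10Rik (5.11 and 5.92, 0.67) and Synpo2, an actin-binding protein (4.12 and 3.87, 0.68). The nearest neighbours of Dusp1 were thus farther away than the 2 nearest of Dusp2. Their ratios on the 2 arrays also lay closer to each other than those of Dusp1 (3.21 and 5.76), and the Synpo2 ratio was lower after depletion. Each likeness rests on 2 arrays.

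The 250 bases before the transcription start were taken from RefSeq (GRCm38.p6) and were found for 8 of the 10 members, all but Dusp4 and Dusp9. They were searched on both strands for TGACG, the core of the cAMP response element, for its full palindrome TGACGTCA, which contains TGACG on each strand, for the E-box CACGTG and for the CArG box, the element bound by serum response factor. These motifs were chosen after the sequences were seen. Sequences of the serum-raised members and of Dusp8 are shown, 5′ to 3′ on the strand of the gene and with matches in capitals, because the members differ in what they hold there.
Dusp1, chr17:26508473-26508722, minus strand: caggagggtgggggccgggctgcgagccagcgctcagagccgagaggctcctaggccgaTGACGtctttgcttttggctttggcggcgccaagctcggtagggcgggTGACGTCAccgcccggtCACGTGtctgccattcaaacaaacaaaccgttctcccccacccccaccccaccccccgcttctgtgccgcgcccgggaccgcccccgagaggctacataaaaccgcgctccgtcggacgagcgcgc
Dusp2, chr2:127335909-127336158, plus strand: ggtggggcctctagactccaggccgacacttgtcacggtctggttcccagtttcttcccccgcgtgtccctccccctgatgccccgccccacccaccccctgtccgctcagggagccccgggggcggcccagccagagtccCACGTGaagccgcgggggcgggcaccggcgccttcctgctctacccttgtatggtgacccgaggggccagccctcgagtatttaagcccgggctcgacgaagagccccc
Dusp5, chr19:53528895-53529144, plus strand: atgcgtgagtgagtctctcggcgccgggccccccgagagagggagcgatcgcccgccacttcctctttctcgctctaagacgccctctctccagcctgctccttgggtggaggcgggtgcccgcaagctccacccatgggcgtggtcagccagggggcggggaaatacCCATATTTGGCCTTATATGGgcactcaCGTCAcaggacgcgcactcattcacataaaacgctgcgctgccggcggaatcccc
Dusp6, chr10:99262981-99263230, plus strand: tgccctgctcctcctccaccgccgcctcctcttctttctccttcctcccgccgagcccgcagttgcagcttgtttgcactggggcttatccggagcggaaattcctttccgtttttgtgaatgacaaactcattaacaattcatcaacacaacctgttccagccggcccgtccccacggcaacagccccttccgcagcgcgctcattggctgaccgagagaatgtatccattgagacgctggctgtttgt
Dusp8, chr7:142095285-142095534, minus strand: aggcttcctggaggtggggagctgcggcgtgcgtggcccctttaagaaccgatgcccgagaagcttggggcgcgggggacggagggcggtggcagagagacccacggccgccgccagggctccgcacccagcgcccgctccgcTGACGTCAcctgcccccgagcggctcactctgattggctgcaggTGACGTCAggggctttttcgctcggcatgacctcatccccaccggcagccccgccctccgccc

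Dusp1 held TGACGTCA starting 143 bases before the start, another TGACG at 191 and CACGTG at 126. Dusp2 held CACGTG at 109 bases and none of the other motifs. Dusp5 held 2 CArG boxes side by side, CCATATTTGG at 82 and CCTTATATGG at 72 bases, and TGACG on the opposite strand at 55. Dusp8 held 2 copies of TGACGTCA, the nearer at 63 bases, and Dusp16 held TGACG at 70. Dusp6, Dusp7 and Dusp10 held none of the 4 motifs in these windows. Over 32851 promoter windows of this length, 17.8% held TGACG, 1.55% TGACGTCA, 6.02% CACGTG and 1.47% a CArG box. The matches describe the sequence only.

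The genes around the phosphatases were read from 8 further lists. Of the 16 other dual-specificity phosphatases tested (of 19), 1 was raised 2-fold or more in control cells and none in THOC5 depleted cells. It was Ssh3, a slingshot phosphatase that acts on cofilin, whose control ratio was 3.51 and whose ratio after depletion was 1.87. Dusp14 (1.48 and 1.07) and the catalytically inactive Styx (1.34 and 1.28) were the next by size among the genes well above background in all 4 channels. Dusp26, named after its values were seen, had a control ratio of 0.5 or less but was well above background in 1 channel alone. The median log2 serum ratio of this list was 0.17 and 0.09, against 2.68 and 2.27 for the 4 inducible nuclear enzymes. The 3 cytoplasmic enzymes had medians of 0.54 and -0.14, and the 3 enzymes that prefer JNK and p38 had 0.39 and 0.45.

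None of the 12 MAP kinases tested (of 13) reached 2-fold on either array, and the ratios farthest from 1 on the control array were those of Mapk6, the atypical kinase ERK3 (1.54 and 1.17), Mapk10, which is JNK3 (1.36 and 1.16), and Mapk11, which is p38β (0.789 and 0.921). Of the 7 MAP kinase kinases, 1 was raised 2-fold or more in control cells and none in THOC5 depleted cells. It was Map2k3, which activates p38 (2.67 and 1.22, a fold reduction of 2.20), while Map2k4 had 1.45 and 1.09 and Map2k7 had 0.877 and 0.891. None of the 12 genes for Ras, Raf and their exchange factors and scaffolds reached 2-fold. On the control array the ratios farthest from 1 were those of Sos2, a Ras exchange factor (1.28 and 1.42), Araf, a Raf kinase (0.787 and 0.820), and Ksr2, a scaffold (1.23 and 1.01). Sos1, another Ras exchange factor named after its values were seen, was the 1 gene of this list past 2-fold between the arrays, with log2 differences of -1.93 before and -1.26 after serum.

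Other feedback inhibitors of the Ras/ERK pathway contained induced genes too. Of the 8 tested (of 9), 3 were raised 2-fold or more in control cells and 2 after depletion, and all 3 had a fold reduction of 2 or more. Over all genes tested these shares were 2.94%, 1.35% and 1.75%, and the 3 genes were picked by their control ratio. Errfi1, an inhibitor of the EGF receptor, had a log2 serum ratio of 4.11 in control cells and of 2.00 after depletion (fold reduction 4.31). The Sprouty proteins block signalling to Ras and ERK, and their log2 serum ratios were 2.12 and 1.09 for Spry4 (fold reduction 2.04) and 2.00 and 0.67 for Spry2 (2.52). Spry1, named here after its values were seen, was the 1 gene of this list with a ratio of 0.5 or less in control cells (0.312, and 0.600 after depletion).

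No gene reached 2-fold on either array among the 2 tyrosine phosphatases of MAP kinases tested (of 3; Ptpn5, 0.867 and 0.891), the 8 Ets factors and the 11 kinases activated by MAP kinases. Ets1 (1.48 and 1.19), Etv1 (0.731 and 0.981) and Ets2 (1.26 and 1.11) had the ratios farthest from 1 on the control array among the Ets factors, which are transcription factors downstream of ERK. Of the kinases activated by MAP kinases, Mapkapk3 had the ratio farthest from 1 on the control array (1.64 and 0.976, a fold reduction of 1.67).

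**Figure D4:**
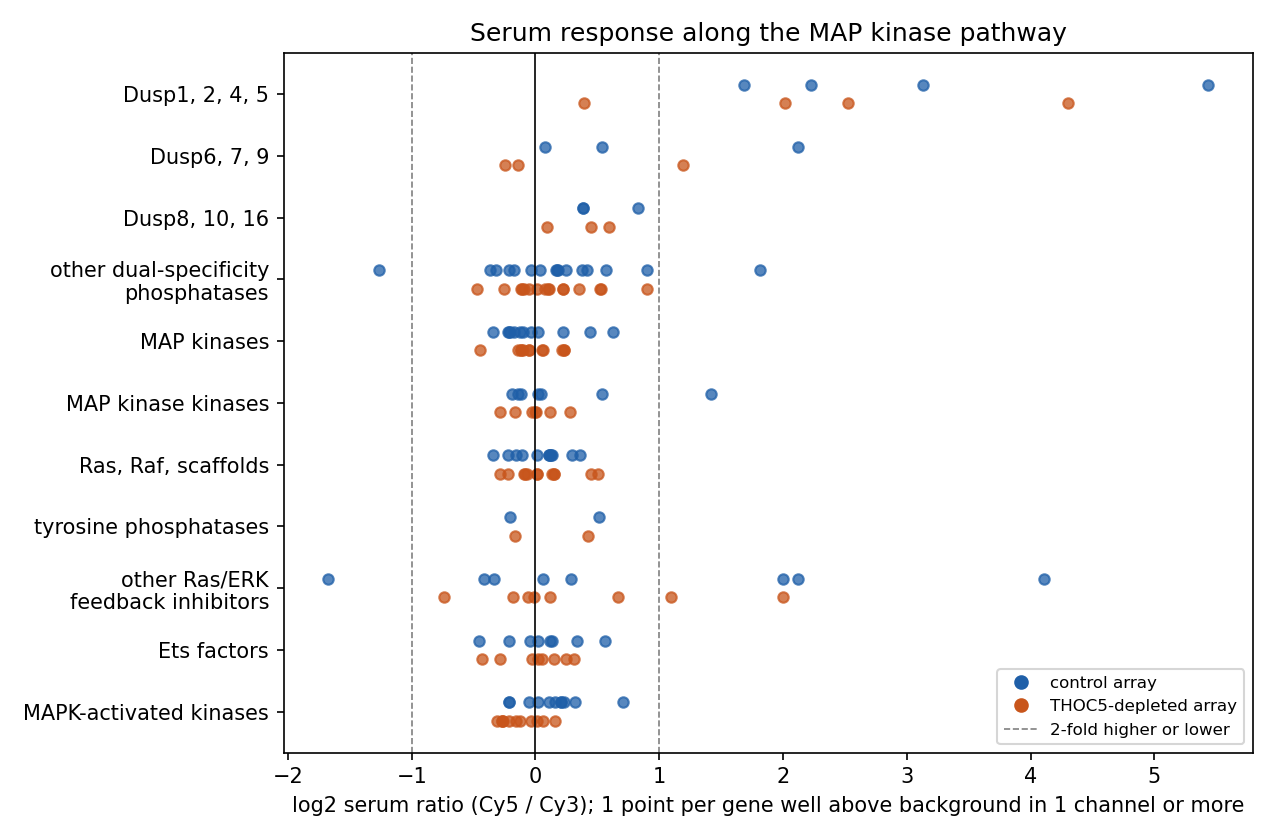
Log2 serum ratio (horizontal) of the genes of each list on the control array (blue) and the THOC5 depleted array (orange), 1 point per gene well above background in at least 1 channel, with dashed lines at 2-fold. Points beyond 2-fold to the right lie in the rows of the inducible nuclear enzymes, Dusp6, Ssh3, Map2k3 and the other feedback inhibitors (Errfi1 at 4.11 in control cells and at 2.00 after depletion).

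The following values of the arrays touch all of these results. Thoc5 itself was 7.10-fold lower in unstimulated and 5.39-fold lower in stimulated THOC5 depleted cells. All 10 fibroblast markers were well above background in Cy3 on both arrays, with signals from 1269 to 105420 in control and from 435.0 to 93361 in THOC5 depleted cells. Of the markers of other cells, 3 of 5 epithelial (up to 97.6 and 88.9), 3 of 4 endothelial (up to 902.0 and 804.9) and 1 of 3 muscle markers (up to 27.5 and 23.6) were so too. The leukocyte markers Itgam (6314 and 7481) and Cd3e were well above background on both arrays, while Ptprc and Cd68 were not. The part of these markers in the results was not tested. The 75th percentile of the signals was 1063 in Cy3 and 1052 in Cy5 on the control array, and 862 and 867 on the other. No spot was saturated. The mean log2 ratio of the 10 spike-in probes was -0.62 on the control and -0.37 on the THOC5 depleted array. With the ratios centred on these probes, 8 rather than 5 members reached 2-fold in control cells and 5 rather than 3 had a fold reduction of 2 or more. Since their nominal ratios were not known, it is open whether this centring is the better one.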

How the data were processed

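RNA of MEF cells was measured on 2 dual-color arrays, 1 per condition. The authors deposited the scanner output of Agilent Feature Extraction 10.7.3.1 (version from the submitters' processing notes). Per the file headers, the processed signals are intensities from which the background was subtracted and whose dyes were balanced by a linear and LOWESS step within the array, with no scaling between arrays. The authors' log10 ratio column matched log10 of Cy5 over Cy3 processed signal within 0.001 for 79.6% and 79.5% of the spots, so ratios were computed from the signals, and its p-values were not used. The authors also deposited a table for the whole series with 0 negative values, which equalled the size of the log10 ratio within 0.001 for 84.8% and 86.0% of the spots and so lacks the sign. It served as an alternative, with the scanner's sign.

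Outlier spots were left out (239 and 234), the mean log signal was taken over spots of a probe, and the brightest probe of a gene was used. A gene was tested if this probe was well above background in at least 1 of 4 channels (19296 genes, of which 17200 in all 4). Called means past the fold stated. Levels across arrays were normalized with limma 3.58.1 (Aquantile). Errors are the software's, on the log2 scale combined over both arrays for fold reductions. Between spots of probes printed 10 times, the median SD of log2 ratios was 0.028 and 0.031. With 1 array per condition, the number of arrays limits the precision.

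The text names all members, Thoc5, at most 3 genes of each other list (the largest absolute log2 serum ratio on the control array among genes well above background in all 4 channels) and, for the member with the highest control serum ratio and the induced member with the lowest fold reduction, the 3 genes nearest by Euclidean distance in the 2 log2 serum ratios. The members and lists were chosen with earlier results of these data known. Alternatives covered background correction (normexp, offset of 50, with loess), no dye normalization, a floor of 50, filters, probe rules, outliers, scaling to 1 spread, spike-in centring, normalization between arrays and fold limits (1.5 and 4). A further leukocyte marker is not reported here. The procedure was tested on simulated data. Software was R 4.3.3, Python 3.11.15, numpy 2.4.6, matplotlib 3.10.9 and pandas 2.3.3.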

Additional observations from a re-analysis of the deposited data

How the results depend on the processing

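Of the counts of members recomputed under the alternatives, 68 stayed within 1.5 times the reported count and 8 did not. The filters on dim probes could not change a count, since every member was well above background in all 4 channels. Keeping outlier spots and using the series table returned the main counts too. Centring on the spike-in probes gave 8 members in place of 5 induced 2-fold or more in control cells and 5 in place of 3 with a fold reduction of 2 or more. Scaling the log ratios to 1 spread (by a factor of 1.39 for the THOC5 depleted array) gave 3 in place of 6 members with a fold reduction of 1.3 or more and 1 in place of 3 with 2 or more. It also turned the log2 fold reduction of Dusp2 from 1.14 to -0.55. A limit of 1.5-fold in place of 2-fold gave 2 in place of 1 member lower in unstimulated cells, 4 in place of 2 lower after serum and 2 in place of 0 higher after serum. With normexp, loess and Aquantile, 1 in place of 2 members was higher in unstimulated cells, without Dusp10. The causes were not tested. Of the values of single members, 307 moved by less than the software error or not at all, 32 by more, and 1 past its limit, the fold reduction of Dusp2, turned its direction. Values below their limits also changed sign, namely serum ratios of Dusp7, Dusp9 and Dusp16 and the fold reduction of Dusp8. Part of the 307 could not move. The mean over probes leaves members with 1 probe unchanged, and scaling to 1 spread leaves control ratios unchanged. Keeping outlier spots and using the series table also returned the main values, so the tally overstates the stability. The log2 fold reduction ran from 1.65 to 2.08 for Dusp4, from 0.32 to 1.36 for Dusp5 and from -1.83 to -0.60 for Dusp1. The unstimulated difference of Dusp4 ran from 2.00 to 2.19 and the stimulated difference of Dusp2 from -2.92 to -2.88. No paired analysis was possible because each condition had 1 array and the labels carry no replicate numbers, and no array could be left out.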
